A study of Mus musculus with 2 samples.

Results

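Broad continuous accessible regions are unbroken stretches of at least 1000 bp marked as significantly cut by DNase I in both of the mice studied. They were chosen from the deposited lists of base runs with an FDR for the local cut rate below 0.05. Runs that touch were merged into regions, and an autosomal region of at least 1000 bp was kept when it overlapped a region of at least 1000 bp in the other mouse. This left 6792 of 171030 merged autosomal regions in mouse 1 (3.97%) and 6819 of 181832 in mouse 2 (3.75%). Overlapping members of the mice formed 6746 loci, each spanning from the first to the last base that its members covered. Width therefore chose the members, and their widths, peaks and footprints are given as a description with no test.

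The study measured open chromatin with DNase-seq. The thymus of each of 2 female mice of the hybrid B6CASTF1/J, aged 36 days, was used. Each mouse gave 1 library, and both libraries form 1 group, with no treatment or mutation to compare. The mice are called mouse 1 and mouse 2 after their replicate numbers. Whole tissue was used, so the cell type in which a base was open is not known, and fewer cells with an open site cannot be told apart from a less open site in each cell.

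DNase I cuts DNA that is not wrapped tightly around nucleosomes. Most open sites are short, about the length left free by the loss of a nucleosome, and hold transcription factors whose contact with DNA leaves a footprint, a few bases protected within a cut stretch. Wider open stretches are known at CpG islands, the GC-rich and often unmethylated promoters of many widely expressed genes, and at clusters of enhancers next to genes that define a cell type. In the thymus most cells are immature T cells, or thymocytes, which rearrange their T-cell receptor genes, carry the co-receptors CD4 and CD8 and depend on regulators such as TCF-1, the product of Tcf7.

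Sequence from inside 6 of the widest loci is shown because it sets windows close to a start site beside windows away from one, with the Tap2 window away from a start although its locus also holds a start. Each window is the 200 bp without annotated exon in its locus that had most bases in footprints of both mice. All are written on the plus strand of mm10 (GRCm38), from RefSeq's copy of the reference genome, 5′ to 3′, and capitals mark bases inside a footprint in both mice. The mice were hybrids, and only the reference allele is shown. The first 3 windows lie near start sites, centred at -396 bp from the nearest Tcf7 start (chr11:52283310-52283509), 329 bp at Plec (chr15:76197780-76197979) and -105 bp at Rara (chr11:98960207-98960406), where negative is upstream. The other 3 lie 14184 bp downstream of the nearest Tap2 start (chr17:34219184-34219383), in the body of Fam78a with the start of Nup214 nearest (chr2:32062138-32062337), and in the body of Ubxn11 (chr4:134117133-134117332).
Tcf7: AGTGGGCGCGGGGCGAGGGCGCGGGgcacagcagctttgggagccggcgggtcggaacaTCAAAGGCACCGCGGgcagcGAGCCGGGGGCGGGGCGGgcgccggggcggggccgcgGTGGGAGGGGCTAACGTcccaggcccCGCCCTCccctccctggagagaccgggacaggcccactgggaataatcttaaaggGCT
Plec: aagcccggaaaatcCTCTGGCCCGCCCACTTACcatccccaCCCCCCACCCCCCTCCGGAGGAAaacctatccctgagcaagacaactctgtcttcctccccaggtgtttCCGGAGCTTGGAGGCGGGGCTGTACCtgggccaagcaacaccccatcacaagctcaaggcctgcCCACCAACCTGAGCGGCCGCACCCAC
Rara: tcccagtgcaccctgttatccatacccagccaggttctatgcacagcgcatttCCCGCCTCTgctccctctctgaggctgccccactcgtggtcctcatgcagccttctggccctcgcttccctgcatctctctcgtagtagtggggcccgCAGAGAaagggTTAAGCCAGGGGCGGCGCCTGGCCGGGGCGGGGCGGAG
Tap2: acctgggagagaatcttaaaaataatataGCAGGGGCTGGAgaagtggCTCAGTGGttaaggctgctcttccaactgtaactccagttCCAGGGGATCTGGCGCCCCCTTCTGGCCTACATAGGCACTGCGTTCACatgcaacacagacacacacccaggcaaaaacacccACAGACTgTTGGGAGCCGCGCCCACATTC
Fam78a: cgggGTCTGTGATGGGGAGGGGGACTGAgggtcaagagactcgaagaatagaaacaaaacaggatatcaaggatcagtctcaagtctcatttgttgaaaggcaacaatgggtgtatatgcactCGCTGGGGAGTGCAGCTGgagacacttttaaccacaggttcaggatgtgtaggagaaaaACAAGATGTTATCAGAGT
Ubxn11: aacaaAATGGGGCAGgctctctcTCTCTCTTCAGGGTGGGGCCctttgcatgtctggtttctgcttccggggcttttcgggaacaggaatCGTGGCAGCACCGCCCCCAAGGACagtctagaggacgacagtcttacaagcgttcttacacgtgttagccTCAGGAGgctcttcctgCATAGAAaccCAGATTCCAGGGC

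The windows by start sites were 75% GC at Tcf7, 63.5% at Plec and 65.0% at Rara. The others were 53.5% GC at Tap2, 46.5% in Fam78a and 55.5% in Ubxn11. Footprints of both mice covered 85, 94 and 53 of the 200 bases at Tcf7, Plec and Rara, and 96, 60 and 81 at Tap2, Fam78a and Ubxn11. The GC box GGGCGG, the letters bound by SP and KLF factors, was searched on both strands. It was centred on capitals 3 times at Tcf7, 3 times at Rara, 1 time at Plec and 1 time at Ubxn11. The Tcf7 window also held CTTTGA, read by TCF-1 and LEF-1, on capitals, as TCAAAG on the printed strand. The Tap2 window held AGGGGGC, the core letters of a site of the insulator protein CTCF, read on the other strand as GCCCCCT. Of 57732 windows of 200 bp laid end to end over the broad loci, 34.2% held GGGCGG, 8.95% CTTTGA and 8.27% AGGGGGC. Over the other accessible regions GGGCGG was in 16.1% of windows in mouse 1 and 19.8% in mouse 2, CTTTGA in 14.2% and 11.4%, and AGGGGGC in 7.42% and 9.23%. Broad loci thus held more GC boxes and fewer TCF-1 letters per window than other accessible DNA, and the CTCF letters lay between the values of the mice. Only full windows were laid, so regions under 200 bp gave none. Broad loci and other regions were not matched for base composition, and its part in these shares was not tested. These matches describe letters and not binding.

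The broad regions were few but large. They held 34.2% of all accessible autosomal bases in mouse 1 and 27.7% in mouse 2, while the loci covered 0.496% of the autosomes. Their median width was 1556 bp in mouse 1 and 1412 bp in mouse 2, against 19 and 51 bp for the other regions. The widest member measured 15155 bp in mouse 1 and 10692 bp in mouse 2. The median locus spanned 1635 bp, with a middle range of 1344 to 2060 bp. Of the 6746 loci, 1864 spanned at least 2000 bp (27.6%) and 346 at least 3000 bp. Nearly every locus was 1 unbroken region in each mouse (6639 loci, 98.4%), and 82.8% of locus bases were accessible as broad regions in both.

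The threshold falls in a continuous range of widths. Just inside it lay Amd1, an enzyme gene of polyamine synthesis, with 1000 bp in mouse 1 and 1028 bp in mouse 2. A locus 6650 bp from Adam11 had 1000 and 1808 bp, and Mcur1 had 1084 and 1000 bp. Just outside lay regions at Mrrf, Pi4kb and Gpi1, which measured 1136, 1742 and 1487 bp in mouse 1 but ended 1 bp short of the threshold in mouse 2. In all, 8691 regions of mouse 1 and 8677 of mouse 2 reached 1000 bp, and 78.2% and 78.6% of them were members. Of those that were broad in 1 mouse only, 1899 in mouse 1 and 1858 in mouse 2, all but 13 and 295 met some accessible region of the other mouse, with a median greatest width there of 844 and 570 bp, where no region counts as 0.

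The broad regions sat mainly at promoters. Within 1000 bp of a protein-coding start lay 5826 of the 6792 broad regions in mouse 1 and 5831 of 6819 in mouse 2, 85.6% ± 0.188 (SD, n = 2). Over all merged autosomal regions this share was 24.2% in mouse 1 and 20.6% in mouse 2, and over the regions that were not members 21.6% and 18.04%. Regions broad in 1 mouse only stood between, with 55.9% in mouse 1 and 58.1% in mouse 2, and so did regions from 500 bp up to the threshold, with 36.7% and 42.5%. In both mice the members were thus at promoters more than 3 times as often as all regions. The rule pairs members across the mice, so the closeness of their shares, and the small SD, are largely built in. With all regions of at least 1000 bp in each mouse alone, the shares were 79.3% in mouse 1 and 79.7% in mouse 2. No test was made, because 1 group of 2 libraries allows none.

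**Figure D1:**
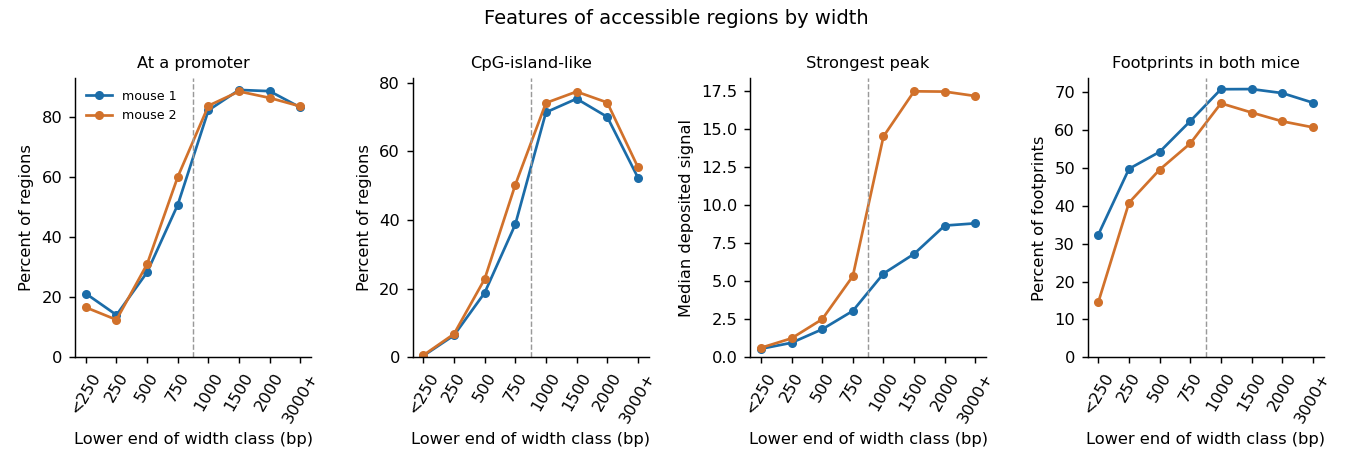
Features of merged accessible regions by width class in mouse 1 (blue) and mouse 2 (orange), one point per class and mouse: percent of regions within 1000 bp of a protein-coding start, percent with CpG-island-like sequence, median deposited signal of the strongest peak, and percent of footprints found in both mice. Regions under 200 bp count as not CpG-island-like. The dashed line marks the 1000 bp threshold; the promoter share passes from 50.9% and 60.2% in the last class below the threshold to 82.4% and 83.9% in the first above it, and the classes above it hold broad regions of both mice only.

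By locus, 5723 of 6746 (84.8%) held a protein-coding start. Of these, 4842 held the starts of 1 gene, 856 of 2 genes and 25 of 3 or more. In 831 loci (12.3%) start sites lay on both strands, as at divergent gene pairs that share a promoter. Another 79 loci had a start within 1000 bp but none inside. In all 6505 of 20722 autosomal protein-coding genes (31.4%) had a start site in a broad locus, against 55.7% in mouse 1 and 62.6% in mouse 2 with a start in an accessible region of any width. Among gene symbols with a start in regions of both mice, 6476 of 11438 (56.6%) had one in a broad locus. The share of a chromosome's genes ran from 24.2% on chromosome 7 to 39.4% on chromosome 12, and the density of loci from 1.87 per Mb on chromosome 14 to 4.96 per Mb on chromosome 11.

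Around the start the broad region was lopsided. In the 4599 loci with starts of 1 gene, one of them annotated as that of a principal (APPRIS) transcript, distances were taken from the most upstream principal start inside the locus. The broad regions reached a median of 659 bp upstream and 903 bp downstream in mouse 1, and 548 and 864 bp in mouse 2. It reached further downstream in 72.1% of these loci in mouse 1 and 78.2% in mouse 2. Peaks, the places where cutting was highest, had 2 humps there. The first stood at the start, where peaks covered up to 79.0% of bases in mouse 1 and 79.7% in mouse 2. The second stood about 500 bp downstream, with 38.8% in mouse 1 and 30.8% in mouse 2, past dips of 27.4% and 22.7%. Genes whose start lay in an accessible region but in no broad locus had 7.55% of bases in peaks there in mouse 1 and 9.81% in mouse 2. Accessible regions of any kind covered 95.0% and 93.8% of bases at that distance in broad loci, against 43.4% and 43.8% at the other starts. The width rule favours such cover in broad loci, and its part in the gap in peak cover was not tested. Footprints had 1 summit, just upstream of the start, of 41.0% in mouse 1 and 41.1% in mouse 2 in broad loci, against 33.0% and 30.1% at the other starts.

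**Figure D2:**
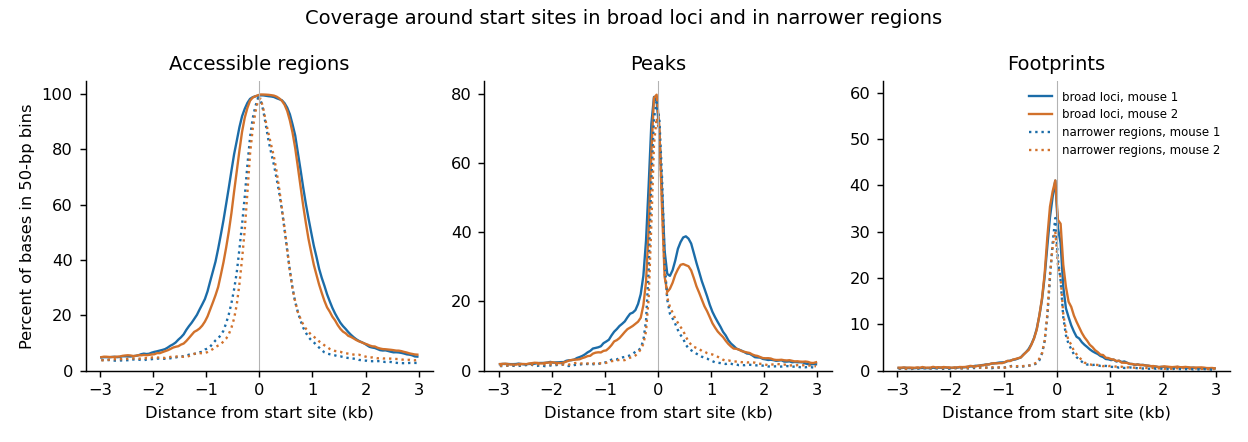
Percent of bases, in bins of 50 bp, that lie in accessible regions (left), peaks (middle) and footprints (right), by distance from the most upstream principal start of a gene in the direction of transcription, for mouse 1 (blue) and mouse 2 (orange). Solid lines are 4599 broad loci and dotted lines are genes whose principal start lay in an accessible region of that mouse and that had no start in a broad locus (4547 in mouse 1, 5837 in mouse 2); peaks in broad loci show a second hump of 38.8% and 30.8% about 500 bp downstream, where the dotted lines of regions are also low (43.4% and 43.8%).

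A broad region usually held more than 1 peak, and the median was 2 per locus in both mice. Some deposited peaks overlap one another, and each was counted as a peak. Every member held at least 1 peak and at least 1 footprint in both mice; among all merged autosomal regions 25.7% held a peak in mouse 1 and 30.9% in mouse 2, and 39.8% and 46.3% a footprint. Regions from 500 bp up to the threshold were almost alike in this, with a peak in 99.1% and 98.9% and a footprint in 99.8% and 99.5%. Members averaged 2.44 peaks in mouse 1 and 2.28 in mouse 2. Of the loci 78.6% had at least 2 peaks in mouse 1 and 74.3% in mouse 2, and 224 and 221 loci had 6 or more. Neighbouring peaks in a locus lay a median of 521.5 bp apart in mouse 1 and 510 bp in mouse 2, centre to centre. Peaks were not denser than elsewhere, with 1.43 per kb in mouse 1 and 1.44 in mouse 2, against 1.85 and 1.98 in other regions. They were wider, with medians of 260 and 230 bp in loci, against 200 and 180 bp outside them. The strongest peak of a member had a median deposited signal of 6.47 in mouse 1 and 15.9 in mouse 2, against 1.07 and 1.23 for other regions that held a peak. Members hold more peaks, so this maximum is over more values; over all peaks the medians were 2.25 and 5.08 in loci, against 1.03 and 1.17 outside them.

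Members averaged 13.6 footprints in mouse 1 and 14.3 in mouse 2, at 7.99 and 9.07 per kb, against 8.73 and 8.60 per kb in other regions. The order of broad and other regions thus differed between the mice, so footprint density set them apart in no one direction. Footprints in members were longer, with medians of 12 bp in mouse 1 and 13 bp in mouse 2, against 9 and 10 bp elsewhere. Of the footprints in members of mouse 1, 70.3% overlapped a footprint of mouse 2, and 65.1% the other way round, against 48.9% and 37.4% in other regions. The rule made every member accessible in both mice, which other regions need not be, so part of this gap is built in. The signal of the broad regions was higher too, and its part was not tested.

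The sequence of the broad regions was CpG-rich. Their median GC content was 59.1% in mouse 1 and 60.5% in mouse 2, a mean of 59.8% ± 0.988 (SD, n = 2), against 50.9% and 53.9% in other regions. The usual marks of a CpG island were taken as GC of at least 50%, an observed to expected CpG ratio of at least 0.6 and a width of at least 200 bp. They were met by 71.7% of members in mouse 1 and 74.5% in mouse 2, against 3.13% and 4.28% of the other regions. Most other regions were under 200 bp and so counted as not meeting them, with median widths of 19 and 51 bp. Of regions from 500 bp up to the threshold, 26.1% and 33.6% met them. Repeats masked in the reference made up 9.10% and 8.27% of bases in members, against 13.7% and 14.5% elsewhere. Coding bases and untranslated exons of coding transcripts made up 9.09% and 16.04% of the loci, introns 42.1% and sequence outside genes 32.7%.

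Of the 6746 loci, 944 (14.0%) had no protein-coding start within 1000 bp. Their median distance to one was 17764 bp, 208 lay over 50 kb away, 528 lay outside gene bodies and 137 held the start of a long noncoding RNA. They were almost as wide as the 5723 loci with a start inside, with medians of 1540 and 1651 bp. Their base composition differed: median GC was 53.6%, against 59.6% in loci with a start, and 18.8% met the CpG island marks, against 80.1%. Peaks were denser in them, with 1.53 and 1.58 per kb in mouse 1 and mouse 2, against 1.36 and 1.28 in loci with a start. Footprints were sparser, with 7.33 and 7.24 per kb, against 7.85 and 8.43. The strongest peak was lower in these distal loci, at 5.39 in mouse 1 and 8.11 in mouse 2, against 6.85 and 17.6. Broad loci with a start were thus mostly CpG-rich and those away from starts mostly CpG-poor, with exceptions in both.

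Within the broad loci, letters of known factors were counted on both strands, in footprints and in the bases between footprints, by the centre of each match. The core letters of NRF1, GCGCATG, had 0.688 matches per kb of footprint in mouse 1, against 0.0587 per kb of other bases. In mouse 2 it had 0.622 and 0.0592 per kb, so the ratios were 11.7 and 10.5. GGGCGG was 6.42 and 6.89 times as frequent in footprints, and made up 16019 matches in footprints of mouse 1 and 17663 in mouse 2. The core of the cyclic AMP response element, TGACGT, had ratios of 5.84 and 4.67, AGGGGGC of CTCF 5.65 and 5.62, and CCGGAAG of ETS factors 4.46 and 4.21. CACGTG, the MYC-type E box, had lower ratios of 1.80 and 1.54. The remaining letters were rarer in footprints or had ratios of up to 1.22. TGTGGT of RUNX factors had ratios of 0.604 and 0.560, AGATAA of GATA factors 0.239 and 0.226, and CTTTGA 1.105 and 0.868. Footprints and the bases between them were not matched for base composition, and its part in these ratios was not tested.

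In 150 bp around peak centres, letters differed in how broad loci compared with other places. GGGCGG was found at 43.3% of promoter peaks within broad loci in mouse 1 and 51.1% in mouse 2, against 36.3% and 42.0% of promoter peaks outside them. For peaks away from promoters it was found at 18.8% and 22.9% within broad loci, against 9.10% and 10.9% outside. TGTGGT was found at 13.2% and 12.6% of the non-promoter peaks within broad loci, against 20.8% and 17.7% of those outside. AGGGGGC was at 6.76% and 8.30% of the non-promoter peaks within broad loci, against 8.56% and 10.79% outside. CCGGAAG went both ways at promoter peaks, with 8.69% within broad loci and 10.51% outside in mouse 1, and 9.55% and 8.69% in mouse 2. So did GCGCATG, with 3.48% and 3.65% in mouse 1, and 4.11% and 3.27% in mouse 2. Mean GC of the non-promoter windows was 56.8% and 58.5% within broad loci, against 52.7% and 54.6% outside, and its part was not tested.

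The widest locus, by the mean of both mice, was at Tap2, which encodes part of the peptide transporter that loads MHC class I (chr17:34202654-34219460). It was 1 region of 15155 bp with 25 peaks in mouse 1, and 3 regions summing to 7048 bp with 20 peaks in mouse 2. The next lay in the body of Fam78a, 14351 bp from the nearest start, that of Nup214, a nuclear pore gene (chr2:32056869-32066822). It summed to 8920 bp in mouse 1 and 9274 bp in mouse 2 with 14 and 17 peaks. Tcf7, which encodes the T-lineage factor TCF-1, followed (chr11:52274193-52285053), with 5890 bp in 4 regions in mouse 1 and 10692 bp in 1 region in mouse 2. It held the most footprints of any locus by the mean, 69 in mouse 1 and 77 in mouse 2.

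A locus in the body of Ubxn11 was next, 3773 bp from the nearest start (chr4:134112147-134120278; 8132 bp in mouse 1 and 5975 bp in mouse 2). Grk2, a kinase that desensitises G-protein-coupled receptors, had 9699 and 4359 bp (chr19:4296297-4306771). Plec, the cytolinker plectin, had 6588 and 7416 bp (chr15:76193894-76201489), and Rara, a nuclear receptor for retinoic acid, 6968 and 6499 bp (chr11:98959457-98967168). These loci differed in how well the mice matched. Sin3a, the scaffold of a histone deacetylase complex, matched best of the 12 widest, with 6240 and 6214 bp (chr9:57071437-57077676) and 99.6% of its bases common to both. Its strongest peak was also the highest among them, at 28.3 in mouse 1 and 42.1 in mouse 2. Mycn, a transcription factor gene of the MYC family, had 6610 and 5401 bp, Midn 3385 and 8327 bp, and Marcks, a substrate of protein kinase C, 5795 and 5672 bp.

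The 6 widest loci without a start within 1000 bp were the ones in Fam78a and Ubxn11 and 4 more. One lay 21070 bp from Ly6e, which encodes a surface protein of thymocytes (chr15:74922373-74933981), with 11609 bp in mouse 1 and 1437 bp in mouse 2. A second lay 31224 bp from Il21r, the interleukin-21 receptor (chr7:125634761-125640902), with 4936 and 6142 bp. Another lay in the body of Tcf7, 19194 bp from its nearest start (chr11:52256428-52263377), with 3871 and 6950 bp. The last lay 65483 bp from Irf2bp2 (chr8:126659469-126668203), with 1979 and 8563 bp. All 6 had an observed to expected CpG ratio under 0.25, between 0.167 and 0.243. Low ratios were not particular to them. Among the 12 widest loci, those with a start ran from 0.274 at Plec to 0.816 at Marcks, and only Sin3a, Mycn and Marcks reached 0.6.

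Most nearest genes had 1 broad locus: 5561 of 6096. Loci gathered at a few, and 950 of the 6746 (14.1%) lay within 10 kb of another. Zfp36l2, an RNA-binding protein that speeds decay of AU-rich messages and takes part in early thymocyte development, was nearest to 10 loci spread over chr17:84115646-84189712. They summed to 27138 bp in mouse 1 and 26467 bp in mouse 2, with 48 and 52 peaks. A run of 4 of them lay between 19791 and 36806 bp downstream of the nearest Zfp36l2 start, with gaps of at most 137 bp, and the widest had 4902 and 4690 bp. Tcf7 was nearest to 8 loci over chr11:52256428-52319627, with 20226 bp and 40 peaks in mouse 1 and 31048 bp and 53 peaks in mouse 2. Only 1 locus at each of these genes held a start. Nearest means the closest protein-coding start along the DNA, and not that a locus acts on that gene.

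After these came Ccnd3, Ddit4, Gse1, Ppp1r9b and Psmg1 with 5 loci each, and then 13 genes with 4 each, Asb1 among them. Ccnd3, the D-type cyclin needed for the expansion of early thymocytes, had 2 loci with a start and 3 others in its body, 7642 bp in mouse 1 and 11126 bp in mouse 2. The strongest peak of these, at 25.5 in mouse 1 and 39.1 in mouse 2, lay in a locus 2091 bp from a start. Ddit4, a stress-induced inhibitor of mTOR signalling, had 1 locus with its start and 4 between 11684 and 30245 bp away. The 5 loci given to Psmg1 all lay 85111 to 102895 bp from it, so its name marks only the closest protein-coding start.

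Thymocyte regulators were mostly broad at their start, and the surface proteins of T cells mostly were not. Of 30 genes for thymocyte transcription factors and related regulators, 24 had a start in a broad locus (80.0%), beside 31.4% of all 20698 autosomal protein-coding gene symbols. All 30 had a start in an accessible region of both mice, and over all such genes the share was 56.6%. Widths in a locus are summed over its broad regions. Myb, a factor of T-cell precursors, had 3748 bp in mouse 1 and 3875 bp in mouse 2 there. Patz1, a zinc finger repressor, had 3694 and 6377 bp, and Zfp36l1, a relative of Zfp36l2, 5368 and 4183 bp. Lef1, the relative of Tcf7, had 3796 and 3274 bp. Gata3 and Ets1 were narrow members, with 1096 and 1051 bp at Gata3 and 1213 and 1113 bp at Ets1.

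Of the 6 regulators with no start in a broad locus, Zbtb7b, which sets the CD4 lineage, had regions of 778 bp in mouse 1 and 379 bp in mouse 2 at its start. Ikzf1, the gene of Ikaros, had 820 and 2264 bp, and so was broad in mouse 2 only. Runx3 had 554 and 619 bp. All 6 had an accessible region at a start in both mice.

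Of the 18 genes for T-cell receptor chains, CD3 and co-receptors, 3 had a start in a broad locus (16.7%): Cd6, Cd28 and Thy1. Over the 16 with a start in an accessible region of both mice the share was 18.75%, beside 56.6% over all such genes. The list holds the fixed CD3 and zeta chains and surface proteins, not the rearranging segments. Of its other 15 genes, 14 had an accessible region at a start in mouse 1 and 13 in mouse 2, with median widths of 534.5 and 880 bp. At Cd3e the region had 1128 bp in mouse 1 and 880 bp in mouse 2, and at Cd3g 892 and 958 bp. At Cd4 it had 400 and 858 bp. Cd8a and Cd8b1 were narrow in mouse 1, with 505 and 673 bp, and broad in mouse 2, with 2229 and 1842 bp. Each of these 2 was also nearest to a broad locus about 19 kb from a start, of 1220 bp in mouse 1 and 2451 bp in mouse 2 for Cd8a, and 1094 and 1638 bp for Cd8b1.

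Narrow starts could be strongly cut. Rag1, a subunit of the recombinase that joins receptor segments, had a region of 615 bp in mouse 1 and 606 bp in mouse 2 at its start, with a strongest peak of 10.9 and 10.04. Cd3g had peaks of 10.8 and 19.3, and Cd8a of 12.7 and 20.7. The median strongest peak of a broad region was 6.47 and 15.9. Rag1, Cd3g and Cd8a were thus above the median broad region in mouse 1, and Cd3g was so in both mice; the Cd8a region was itself broad in mouse 2.

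Of 17 genes for receptor rearrangement (V(D)J) and the pre-TCR, 5 had a start in a broad locus (29.4%), beside 31.4% of all genes. Over the 16 with a start in an accessible region of both mice the share was 31.25%, below the 56.6% over all such genes. The 5 were Notch1, the receptor that commits cells to the T lineage, with 2472 bp in mouse 1 and 1842 bp in mouse 2, Hmgb1, Prkdc, Xrcc4 and Xrcc6. The last 3 encode DNA repair proteins that most cells use, and Hmgb1 a chromatin protein. Rag2, Dntt, which adds bases at the joins, and Ptcra, the pre-receptor alpha chain, had regions of 384, 395 and 537 bp in mouse 1 and 506, 378 and 589 bp in mouse 2. Among T-cell receptor signalling genes 13 of 22 were members (59.1%), and among genes for cytokines, survival and egress 10 of 19 (52.6%). All of these genes had a start in an accessible region of both mice, and both shares were near the 56.6% over all such genes. Csk, a kinase that restrains Lck, had 2283 and 4155 bp, and Nfatc1 had 2891 and 1240 bp. Socs3, a brake on cytokine receptors, had 2197 and 4583 bp, and Bcl2l11, which encodes the death factor BIM, 2968 and 4439 bp.

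**Figure D3:**
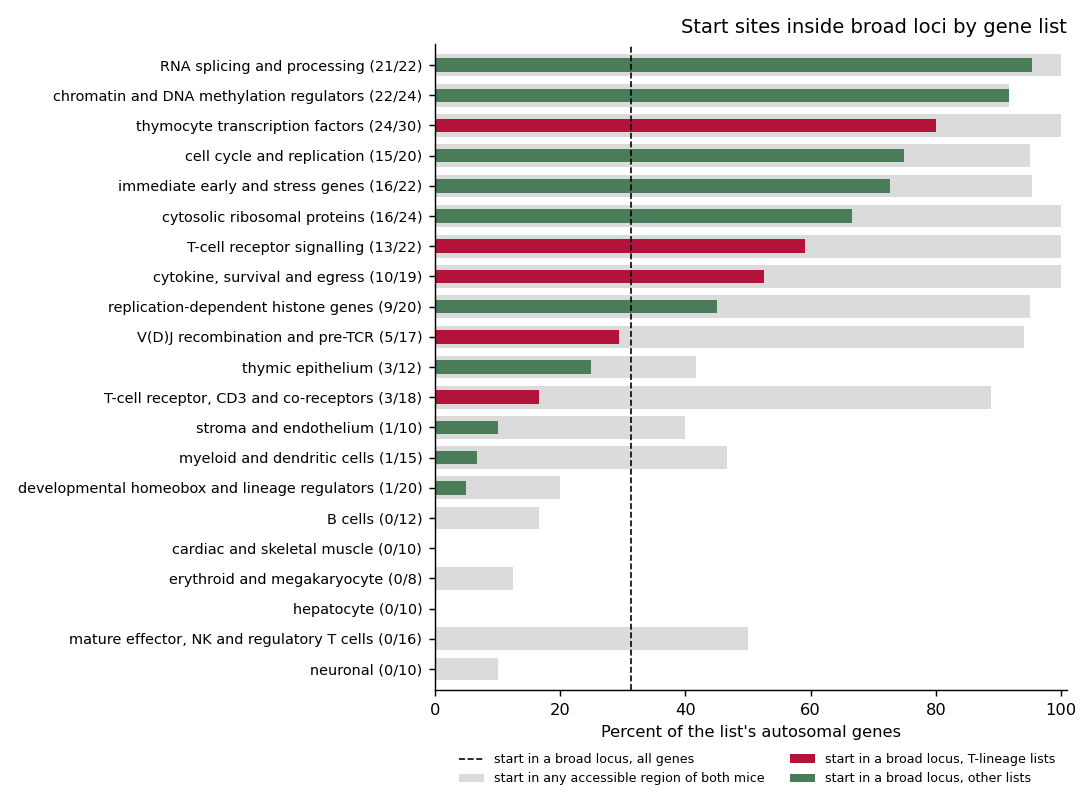
Percent of each list's autosomal genes with a start site in a broad locus (narrow bars, red for T-lineage lists and green for the others) over the percent with a start in any accessible region of both mice (wide grey bars), with the number of genes in each label. The dashed line is the share of all protein-coding genes, 31.4%; splicing genes (21 of 22) and chromatin regulators (22 of 24) stand at the top and 6 lists have none.

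Genes used by most cells stood high beside the 31.4% over all genes. Over genes with a start in an accessible region of both mice, the share was 56.6%. On that basis splicing genes had 95.5%, chromatin regulators 100%, cell cycle genes 78.95% and immediate early and stress genes 76.2%. Of 22 splicing and RNA processing genes 21 had a start in a broad locus (95.5%), and of 24 regulators of chromatin and DNA methylation 22 (91.7%). Hnrnpu, an RNA-binding protein of the nuclear matrix, had 2946 bp in mouse 1 and 1865 bp in mouse 2, and U2af2, which marks the 3′ end of introns, 2922 and 2804 bp. Brd2, a reader of acetylated histones, had 4920 and 4936 bp in a locus shared with H2-DMa, and Kmt2a, a histone methyltransferase, 4773 and 3740 bp. Cell cycle and replication genes had 15 of 20 (75%), and immediate early and stress genes 16 of 22 (72.7%). Egr2 had 4271 and 4488 bp, Myc 4309 and 4306 bp and Jun 4216 and 3825 bp. These 3 encode transcription factors that cells switch on within minutes of a stimulus.

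Genes of ribosomal proteins had narrower loci. Of 24 genes for cytosolic ribosomal proteins 16 had a start in a broad locus (66.7%), with median region widths of 1260 bp in mouse 1 and 1252 bp in mouse 2. Of 20 replication-dependent histone genes 9 did (45.0%), with medians of 2317 and 1831 bp; several share a locus, and near-identical copies of these genes can blur where reads map. The splicing genes had medians of 2209 and 1816 bp and the thymocyte regulators of 2146 and 2264 bp. Ribosomal protein genes thus had the narrowest median of these 4 lists in both mice. Among genes with a start in an accessible region of both mice, 66.7% of the ribosomal protein list and 47.4% of the histone list had one in a broad locus. The share over all such genes was 56.6%, and over all genes 31.4%.

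Markers of other cell types were less often members than all genes, each list standing below the 31.4% over all genes. Many of these genes had no start in an accessible region of both mice. None of 16 genes of mature effector, natural killer and regulatory T cells had a start in a broad locus, though 8 had a start in an accessible region of both mice. None of 12 B-cell, 8 erythroid, 10 neuronal, 10 hepatocyte and 10 muscle genes had one. In the same order, only 2, 1, 1, 0 and 0 of these genes had a start in an accessible region of both mice. Of 15 myeloid and dendritic genes 1 did (Cebpb), of 10 stromal and endothelial genes 1 (Pecam1), and of 20 homeobox and other developmental regulators 1 (Lhx2). Of 12 genes of thymic epithelium 3 did: Epcam with 1678 bp in mouse 1 and 1043 bp in mouse 2, Cldn4 with 2571 and 1258 bp, and Ccl25, in a locus that also holds the start of Elavl1. Some starts of these lists were open without being broad. A start in an accessible region of both mice was found for 5 of the 12 epithelial and 7 of the 15 myeloid genes. These counts include the 3 epithelial genes and 1 myeloid gene with a start in a broad locus. Thymocyte markers were split: Tcf7, Bcl11b and Lck had a start in a broad locus, and Cd3e, Cd3d, Cd3g, Cd4, Cd8a, Cd8b1 and Rag1 did not.

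The rule kept loci of at least 1000 bp in both mice and left out the 1899 regions of mouse 1 and 1858 of mouse 2 that were broad in 1 mouse only, so the likeness of widths that follows is partly fixed by it. On the log2 scale the summed width of mouse 1 over that of mouse 2 had a median of 0.09 with an SD of 0.32 over loci, and 91.7% of loci were within 1.5-fold. Mouse 1 was wider in 4956 loci and mouse 2 in 1777. Across the 6746 loci the log2 widths had a Pearson r of 0.746 and the widths a Spearman rho of 0.712; loci share a library and its depth and are no replicates, so no p is given. Width and the signal of the strongest peak were only weakly related, with a rho of 0.256 in mouse 1 and 0.146 in mouse 2.

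**Figure D4:**
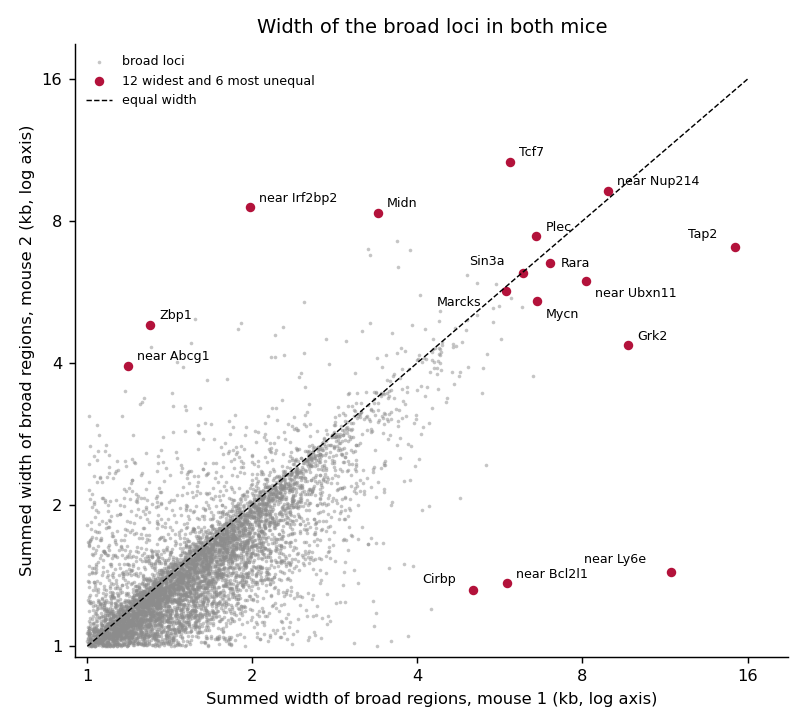
Summed width of the broad regions of each locus in mouse 1 (x) and mouse 2 (y), in kb on log axes, one grey point per locus. Red points are the 12 widest loci and the 6 with the most unequal widths, named by a gene with a start inside or, after "near", by the nearest gene; most points lie by the dashed line of equal width and 91.7% within 1.5-fold of it.

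A few loci were very unequal. Wider in mouse 1 were the locus near Ly6e, one in the body of Bcl2l1, 9295 bp from its nearest start (5834 and 1360 bp), and Cirbp, a cold-induced RNA-binding protein (5052 and 1314 bp). Wider in mouse 2 were the locus near Irf2bp2, Zbp1, a sensor of Z-form nucleic acids (1303 and 4816 bp), and one in the body of Abcg1 (1184 and 3938 bp). On the log2 scale these ratios of mouse 1 to mouse 2 ran from 3.01 near Ly6e to -2.11 near Irf2bp2. A width counts only the regions of at least 1000 bp, so a break of a few bases can shorten it. The Irf2bp2 locus still had 9 peaks in mouse 1 and 17 in mouse 2.

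GC content moved with the difference between the mice. In the GC-poorest of 5 equal groups of loci (42.8% to 54.9% GC) the median log2 width ratio, mouse 1 over mouse 2, was 0.19, and in the GC-richest (63.04% to 72.9%) it was 0.03. The log2 ratio of the strongest signals was -0.74 in the GC-poorest group and -1.57 in the GC-richest group. Mouse 2 thus had the higher signals throughout and more so at GC-rich loci, and its footprints per kb rose over the 5 groups to 9.27, against 7.02 in the lowest, while those of mouse 1 reached 8.18, against 7.08. In both mice the share of loci with a start inside rose with GC, with 55.3% in the GC-poorest group and 95.9% in the GC-richest. The part of GC in the differences between the mice was not tested.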

How the data were processed

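DNase-seq files of 2 libraries on mm10 were used. Per the labels, the authors derived peaks, cut-rate runs and footprints from filtered alignments of each library; which aligner and callers were run, and with what thresholds, is not given in the labels used here. The deposited FDR value belongs to each run of bases, and the lists hold only values below 0.05. The deposited peak signal is a depth-normalised height on an unnamed scale, so its level was compared between mice only with that limit. The deposited footprint lists carry 1 constant value and only their positions were used. Of 2 peak lists per library the shorter was used (59484 peaks in mouse 1 and 72913 in mouse 2); the signal steps by 0.00638 in mouse 1 and 0.00504 in mouse 2, and read depth is not known.

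Touching runs were merged, regions of at least 1000 bp kept as described, and features counted by overlap of at least 1 bp with Python 3.11.15, numpy 2.4.6, pandas 2.3.3, scipy 1.17.1, pysam 0.24.0 and matplotlib 3.10.9. The selection step was checked on simulated regions. Gene starts came from GENCODE M21 and sequence from RefSeq's GRCm38 genome; 99.0% of 13547 coding starts read ATG there. The sex chromosomes were left out. The members, 21 gene lists (365 genes) and 16 motifs were chosen with earlier results of these data known. Loci named are the 12 widest, the 6 widest away from starts, the 5 with most peaks and with most footprints, 3 on each side of the threshold, 3 most unequal in each direction, those of the 8 genes with most loci (the last from a tie of 13), and the widest of each list; genes named for a narrow start were picked after their values were seen. With 1 group of 2 libraries no test between groups was possible, and an SD over 2 mice is a rough measure of spread.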

Additional observations from a re-analysis of the deposited data

Results flagged for a closer look

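The sex chromosomes lay outside the main measurement, and no control samples exist. On the X chromosome 191 loci met the same rule, with the starts of 181 of 948 genes (19.1%) inside them, 1.12 loci per Mb and a widest locus of 14324 bp. On the Y chromosome, which female mice lack, 1 locus met it. There 1 region reached the threshold in mouse 1 and 3 in mouse 2.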

How the results depend on the processing

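Of the alternatives, 20 values moved and 41 stayed within the spread between the mice or within 1.5 times. The comparisons with other regions were not repeated, so a reversal of direction could not be seen. With a threshold of 750 bp there were 10214 loci, 78.8% of regions at promoters and 1.46 peaks per kb; with 1500 bp there were 2517 loci, 89.3% at promoters, 1.48 peaks per kb and 2591 genes with a start inside. Merging runs up to 20 bp apart gave 84.8% at promoters. Runs with an FDR of at most 0.01 gave 88.5% at promoters, 1.46 peaks per kb and a median GC of 60.9%. Promoter windows of 500 and 2500 bp gave 84.9% and 87.2%. Footprints of at least 10 bp gave 5.59 per kb, against 8.53 for all, and an overlap of at least 50% of both footprints left 51.1% shared, against 67.7%. Leaving out 1 mouse, the share at promoters ran from 79.3% to 79.7%, peaks per kb from 1.447 to 1.508 and median GC from 58.0% to 60.5%, and the number of loci from 8677 to 8691; footprint sharing needs both mice and has no such value. No paired analysis was possible because both mice belong to 1 group. Read depth is not known, and the SD of 2 mice is small for several measures, so a moved value can be a small change.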
